A study of Mus musculus with 2 samples.

Results

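A set of 9 synaptic and exocytosis genes was followed in ureters of mouse embryos, namely C1ql3, Colq, Ctnna2, Snap25, Syt1, Syt4, Cplx2, Rab3c and Ache. These are 9 of the 31870 gene names on the array, and each was found by its name among the non-control probes of both scanner files. They had been selected on the measurements described here, because C1ql3, Colq and Ctnna2 were lower in the RNA labelled Gata2cKO while Snap25, Syt4 and Cplx2 were not. The direction of those genes is therefore a description and no test of them is given.

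The study hybridised 2 dye-swapped 2-colour Agilent arrays with ureter RNA from NMRI embryos at E14.5. The Gata2cKO genotype was Tbx18(cre/+);Gata2(fl/fl), in which Cre recombinase is made from the Tbx18 locus and both Gata2 alleles are flanked by loxP sites, and the control genotype was Tbx18(+/+);Gata2(fl/?), with no Cre, 1 floxed Gata2 allele and 1 allele that is not stated. Tbx18 is active in the mesenchyme around the ureter, so the Cre is aimed at that mesenchyme and its descendants and not at nerves. Array 1 compared female RNAs, with the Gata2cKO RNA in Alexa Fluor 647, and array 2 compared male RNAs, with the Gata2cKO RNA in Alexa Fluor 555. Sex and dye orientation thus changed together and cannot be told apart. The labels do not say how many embryos were pooled for an RNA. SDs thus measure the spread between these 2 arrays, which may be technical in part. The p-values rest on that spread combined with a prior drawn from all genes tested.

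The level of the targeted gene did not bear out the labels. The log2 ratio of Gata2 was 0.33 on array 1 and 0.54 on array 2, labelled Gata2cKO over control, with a mean of 0.44 ± 0.153 (SD, n = 2 arrays) and a limma adjusted p of 0.409. Tbx18, the locus that carries Cre, was at 0.65 and 0.15, with an adjusted p of 0.66. The deleted part of Gata2 is not given in the labels, so the probe may lie outside it. Directions below are those of the RNA labelled Gata2cKO. Markers of the tissue were present, with 12 of 12 urothelium, 10 of 10 ureteric mesenchyme and 9 of 10 smooth muscle markers well above background.

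Regulated exocytosis joins a vesicle to the plasma membrane. SNARE proteins such as Snap25 draw the membranes together, complexins such as Cplx2 bind the assembled SNAREs, synaptotagmins such as Syt1 and Syt4 sit on the vesicle and Syt1 senses calcium, and Rab3 GTPases such as Rab3c mark the vesicle. Other genes of the set act around the synapse. C1ql3 encodes a secreted C1q-like protein that binds adhesion receptors at brain synapses, Colq the collagen tail that anchors acetylcholinesterase at the neuromuscular junction, Ache that enzyme, and Ctnna2 the neuronal alpha-catenin, which couples cadherin adhesion to actin. Autonomic nerve fibres and ganglion cells reach the urinary tract in the embryo, and endocrine cells use the same fusion machinery.

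The 9 genes were read by 17 probes of 60 bases, of which 16 were well above background. The sequences below are bases 1 to 30 of the probes on which the directions turned, 5′ to 3′, with the probe's position on mm9 as the scanner files give it. They are shown because the probes fell into different kinds by sequence. Capitals mark bases inside a run of at least 16 bases that also occurs, on either strand, in a probe of another gene.
C1ql3 (chr2:12923549-12923608, minus strand): gacctgaccttttctttagataagtaagca
Colq probe 1 (chr14:32336270-32336329, minus strand): ttccggggcttctgggtgggcaaacaagga
Colq probe 2 (chr14:32341463-32341522, minus strand): gtcctgcagcctggggaagagtgtgatgat
Ctnna2 probe 1 (chr6:76831751-76831807, minus strand): tctaaacttgaactctgactttgctagaca
Snap25 (chr2:136607709-136607768, plus strand): CACACACACACACACACACAAAGtggattt
Cplx2 probe 1 (chr2:31733377-31733436, minus strand): AGGAGGAGGAGGAGGAGGAGGAGGAGGAGG
Cplx2 probe 4 (chr13:54485200-54485259, plus strand): tccccactttgtatgatgcaaatgctaaga
Rab3c probe 1 (chr13:110850524-110850583, minus strand): atgtTCTACAGAGTGAGTTCTAggatagca
Rab3c probe 3 (chr13:110844454-110844513, minus strand): ctgttaggtatttagtttgtgtgtgaattc
The Snap25 probe opens with a CA repeat, the first 3 Cplx2 probes consist of purines alone (100%), and Cplx2 probe 1 is placed by the file on another chromosome than the other 3 Cplx2 probes. An mm9 annotation was not used here, so exons and untranslated regions were not assigned.

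Of the 16 probes well above background, 6 shared such a run with probes of 3 or more other genes, and the other 10 shared none. The 6 were the Snap25 probe (109 other genes), Cplx2 probes 1 to 3 (24, 27 and 6 other genes) and the overlapping Rab3c probes 1 and 2 (3 other genes each). Any 16 bases of a probe were also sought in RefSeq promoter windows of other genes. They were found for 155 genes with the Snap25 probe, 105, 129 and 4 with Cplx2 probes 1 to 3, and 16 with each of these Rab3c probes. Of the 10 probes, C1ql3, Ctnna2 probe 2 and Rab3c probe 3 each matched windows of 1 other gene. A probe that shares runs with other genes' probes may read RNA of more than its named gene, and whether it did was not tested. The kinds were defined after the ratios had been seen.

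Of the 9 genes by their brightest probe, 3 were at least 1.5-fold lower on both arrays, against 0.439% of the 20506 genes tested, and 0 were at least that much higher, against 0.273% (0.712% in either direction). The 3 are C1ql3, Colq and Ctnna2, the genes the set was chosen for, so nothing is read from that count. With Ache, 4 of 9 were lower on both arrays, against 26.2% of all genes tested, and Snap25, Syt4, Cplx2 and Rab3c made 4 of 9 higher on both, against 27.0%. With median centring in place of loess only Syt4 of these was higher on both arrays, while Snap25, Cplx2 and Rab3c had opposite signs. Syt1 had opposite signs on the arrays. The median log2 ratio of the 9 was -0.131, and that of all genes tested was 0.00284. In whole ureter RNA, fewer cells of a type and less RNA per cell cannot be told apart. Below, groups are said not to overlap where both signals labelled Gata2cKO lie on the same side of both control signals. The share of all probes that separate in this way was not counted, so nothing is read from it.

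C1ql3, the secreted synapse organiser, had a normalized signal of 331 on both arrays in RNA labelled Gata2cKO, against 879 and 1109 in control RNA. The groups were far apart and the signals labelled Gata2cKO were equal. Its log2 ratio was -1.41 on array 1 and -1.74 on array 2 (-1.58 ± 0.237, SD, n = 2), a level 0.34 times that of the control. In the authors' deposited table, whose centring is not known, the ratios of this probe were -3.04 and -3.46 on the log2 scale, and the processed signals of the scanner software gave -1.72 and -2.06. Its direction was the same in each.

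Its relatives among the C1q-like and cerebellin organisers were mostly not detected. C1ql1, C1ql2, C1ql4, Cbln3 and Cbln4 were not well above background, and neither were Lrrtm2 and Lrrtm3. The detected cerebellins, named after their values were seen, were Cbln1 at -0.08 ± 0.0825 and Cbln2 at 0.02 ± 0.0645 on a probe that shared runs with 28 other genes. Of the 12 other organisers tested, 3 were lower and 5 higher on both arrays (median log2 ratio 0.14). Nlgn1, a postsynaptic adhesion protein, had signals of 343 and 355 in RNA labelled Gata2cKO and 227 and 285 in control RNA, a mean log2 ratio of 0.46 ± 0.199 (adjusted p = 0.41).

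Ctnna2, the neuronal alpha-catenin, had signals of 1141 and 1136 on probe 1 in RNA labelled Gata2cKO, against 3493 and 2963 in control RNA. Both signals labelled Gata2cKO were far below both control signals, and the groups did not overlap. The log2 ratios were -1.61 and -1.38 (-1.50 ± 0.164, SD, n = 2), or 0.35 times the control level. Probe 2, which carries another transcript accession of the gene, had 339 and 455 against 748 and 691, with ratios of -1.14 and -0.60. The probes moved the same way, and the second gave a mean of -0.87 ± 0.381. In the authors' deposited table probe 1 was at -2.36 and -1.81 and probe 2 at -2.21 and -1.96.

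The broadly expressed alpha-catenin Ctnna1, named here after its values were seen, did not share that size. It had 106235 and 119588 in RNA labelled Gata2cKO and 101657 and 100633 in control RNA, a log2 ratio of 0.16 ± 0.131. Beta-catenin, Ctnnb1, was at -0.01 ± 0.115, and Ctnna3 was not well above background. Of the 19 other catenin and neuronal adhesion genes tested, 5 were lower and 9 higher on both arrays (median 0.0119.) Cntn1, an axonal adhesion protein of the immunoglobulin family, had 4266 and 2942 against 1757 and 1829, a log2 ratio of 0.98 ± 0.42 (adjusted p = 0.182), and Cdh10, a neuronal cadherin, was at -0.35 ± 0.04 (adjusted p = 0.508).

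Colq, the tail subunit of synaptic acetylcholinesterase, had signals of 507 and 548 on probe 1 in RNA labelled Gata2cKO, against 1362 and 1248 in control RNA. The log2 ratios were -1.43 and -1.19 (-1.31 ± 0.169, SD, n = 2), or 0.40 times the control level. Probe 2 was dim, with 198 and 199 against 226 and 265, and ratios of -0.19 and -0.42. The groups did not overlap on either probe, but the mean of probe 2 was -0.30 ± 0.16, so the probes disagreed in size. The processed signals, from which the local background is subtracted, gave -0.53 and -0.69 for probe 2 and -1.64 and -1.33 for probe 1.

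Ache, the catalytic subunit that Colq anchors, was read near background. Probe 1 had 189 and 168 in RNA labelled Gata2cKO, against 219 and 237 in control RNA, with log2 ratios of -0.21 and -0.49 (-0.35 ± 0.2, SD, n = 2). All 4 signals were low, so nothing is read from the groups not overlapping. Its mean was -0.78 with processed signals and 0.12 in the authors' deposited table, so its direction rested on the table used. Probe 2 was not well above background in any of the 4 channels.

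Other genes of the cholinergic synapse were lower on both arrays in 8 of 16 cases and higher in 3, with a median of -0.0713. Slc18a3, the vesicular acetylcholine transporter, had 420 and 407 in RNA labelled Gata2cKO against 868 and 682 in control RNA, a log2 ratio of -0.90 ± 0.214 (adjusted p = 0.106). Chrnb2, a nicotinic receptor subunit of neurons, was at -0.62 ± 0.0603 (adjusted p = 0.197), and only 1 of its 2 signals in RNA labelled Gata2cKO was well above background. Chosen after their values were seen, Prima1, which anchors acetylcholinesterase in neuronal membranes, was at -0.53 ± 0.143, Bche, the related butyrylcholinesterase, at 0.33 ± 0.289, and Chat, the acetylcholine-synthesising enzyme, at -0.09 ± 0.0975 on a probe that shared runs with 8 other genes. Musk and Dok7, which organise the neuromuscular junction, were not well above background, nor were Chrna3, Chrna5, Chrna7, Chrne, Chrm1 and Chrm2.

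**Figure D1:**
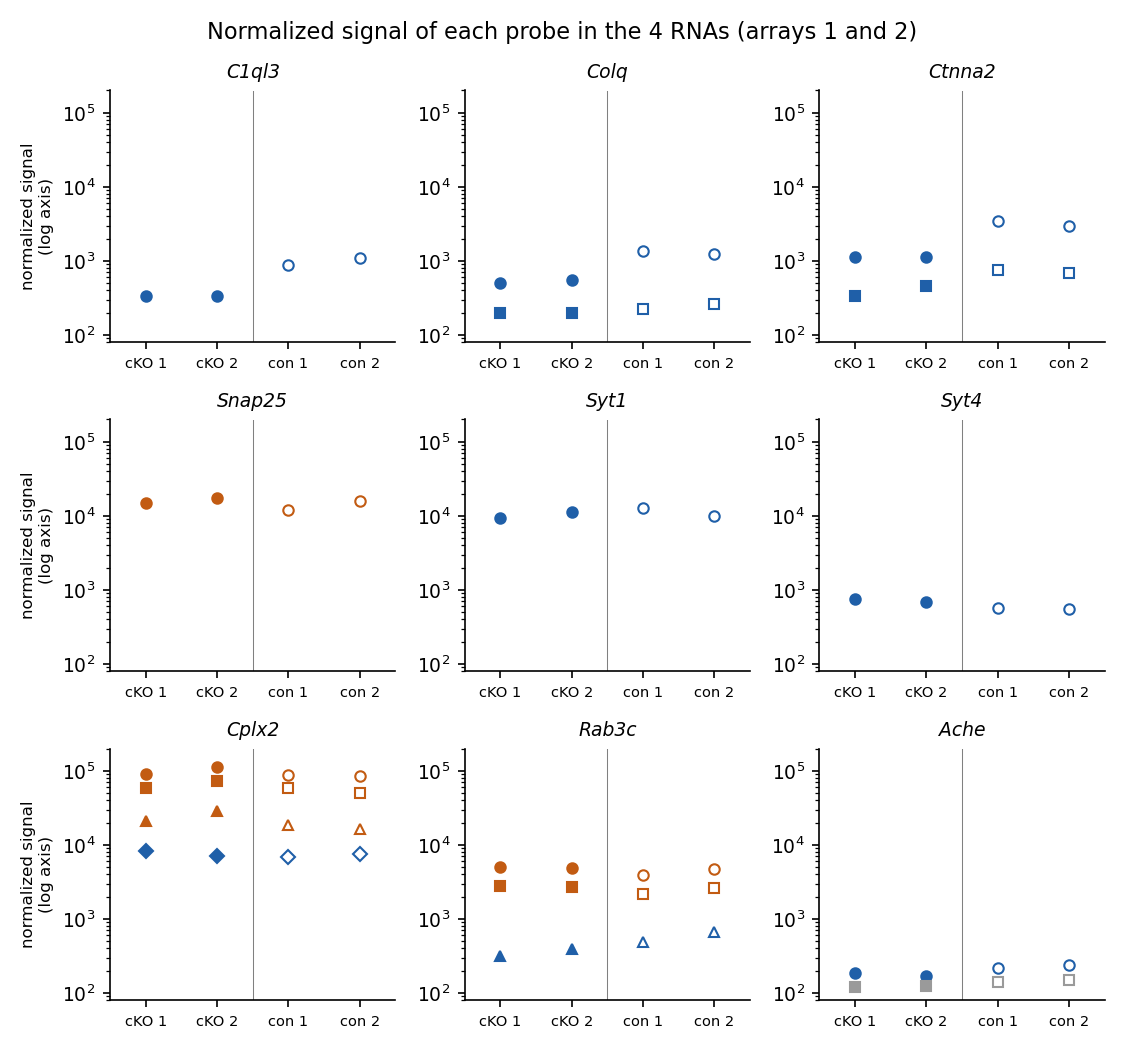
Normalized signal (log axis) of each probe of the 9 genes in the RNAs labelled Gata2cKO (filled, arrays 1 and 2, left) and control (open, right). Each symbol shape is 1 probe, orange marks probes that share a 16-base run with probes of 3 or more other genes, blue those that do not, and grey the Ache probe not well above background. C1ql3, Colq probe 1 and Ctnna2 probe 1 lie well below the control points. The orange Snap25, Cplx2 and Rab3c points lie closer to theirs, the farthest being Cplx2 probe 3 on array 2 (28742 against 16490).

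Among the fusion genes, Snap25 had signals of 14945 and 17419 in RNA labelled Gata2cKO, against 11882 and 15803 in control RNA. The ranges overlapped, since the first signal labelled Gata2cKO lay below the second control signal. The log2 ratios were 0.33 and 0.14 (0.24 ± 0.135, SD, n = 2), and median centring of the arrays in place of loess gave 0.46 and -0.07. This single Snap25 probe is the one with the CA repeat printed above.

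Snap23, the broadly expressed relative of Snap25, had a probe that shared runs with 109 other genes as well, and its log2 ratio was 0.27 ± 0.018 (adjusted p = 0.67). Napb, a SNAP protein that helps recycle SNAREs in neurons, was at 0.20 ± 0.0226 (adjusted p = 0.771). Of the 18 other SNARE and recycling genes tested, 6 were lower and 4 higher on both arrays (median -0.0572.)

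Cplx2, the complexin of the set, was read by 4 probes. Probe 1 had 90980 and 111107 in RNA labelled Gata2cKO, against 87352 and 85592 in control RNA, with log2 ratios of 0.06 and 0.38 (0.22 ± 0.225, SD, n = 2). Probe 2 had ratios of 0.02 and 0.54, and probe 3, with 20998 and 28742 against 18783 and 16490, ratios of 0.16 and 0.80. After loess these 3 purine probes were higher on both arrays. With median centring probe 1 was at 0.53 and -0.26 and probe 2 at 0.40 and 0.04, and with processed signals probe 1 was at -0.10 and 0.53, so neither the sign of probe 1 nor the order of the arrays held across scalings. Probe 4, the one with no shared run, had 8232 and 7123 against 6850 and 7535, with ratios of 0.27 and -0.08 (0.09 ± 0.245). Its groups overlapped and its sign changed between the arrays. Of the probes well above background on the array, 0.199% held at least 90% purines.

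Cplx1, the other complexin that was detected, had 233 and 218 in RNA labelled Gata2cKO against 550 and 362 in control RNA. Its log2 ratios were -1.24 and -0.73 (-0.99 ± 0.358, adjusted p = 0.146), and its probe shared no run. Cplx3 and Cplx4 were not well above background. Unc13c, a priming factor of the Munc13 family, had 202 and 178 in control RNA and was not well above background in RNA labelled Gata2cKO, which makes the control level at least 1.33-fold higher (adjusted p = 0.146). The authors' deposited table had Unc13c higher on both arrays, at 0.86 and 0.42. In the fusion regulators as a group, 8 of 15 were lower and 2 higher on both arrays (median -0.083.)

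Syt1, the calcium sensor of fast release, had signals of 9292 and 11177 in RNA labelled Gata2cKO, against 12606 and 9884 in control RNA. The female ratio was -0.44 and the male ratio 0.18, so the SD of 0.437 exceeded the mean of -0.13. The authors' deposited table had it higher on both arrays, at 0.32 and 0.79. Syt4, a synaptotagmin of dense-core vesicles that binds calcium weakly, had 759 and 684 against 565 and 560. Its groups did not overlap, and its ratios were 0.42 and 0.29 (0.36 ± 0.0969, or 1.28-fold), on a probe that shared no run.

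The other synaptotagmins were split, with 4 of 10 lower and 4 higher on both arrays and a median of -0.0644. Syt16, a synaptotagmin relative, had 1349 and 1225 in RNA labelled Gata2cKO against 933 and 759 in control RNA, a log2 ratio of 0.61 ± 0.111 (adjusted p = 0.202). Syt9, a calcium sensor of secretory cells, was at 0.37 ± 0.035 (adjusted p = 0.468). Syt2, Syt7, Syt12, Syt14 and Syt15 were not well above background.

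Rab3c, the vesicle GTPase, gave opposite directions on its probes. Probe 1 had 4977 and 4911 in RNA labelled Gata2cKO, against 3949 and 4654 in control RNA, with log2 ratios of 0.33 and 0.08 (0.21 ± 0.181, SD, n = 2). Probe 2, which overlaps it on the genome, had ratios of 0.36 and 0.02. Probe 3, with no shared run, had 317 and 389 against 489 and 657, and ratios of -0.62 and -0.76 (-0.69 ± 0.0949), or 0.62 times the control level. On probe 3 both signals labelled Gata2cKO were below both control signals, and its ratios were -0.93 and -0.89 from processed signals. The authors' deposited table gave -0.62 and -0.95. The direction of Rab3c thus depended on which probe stood for the gene.

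Its relatives are given next. Rab3d, the Rab3 of secretory cells, was at -0.25 ± 0.0336 (adjusted p = 0.705), and Rab27b, another secretory Rab, at 0.39 ± 0.0171 (adjusted p = 0.418) on a probe that shared runs with 18 other genes. Rab3a and Rab3b, named after their values were seen, were at -0.06 ± 0.158 and -0.05 ± 0.0723. Of the 17 other genes of the Rab3 and Rab27 cycle, 6 were lower and 4 higher on both arrays (median -0.0462.)

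**Figure D2:**
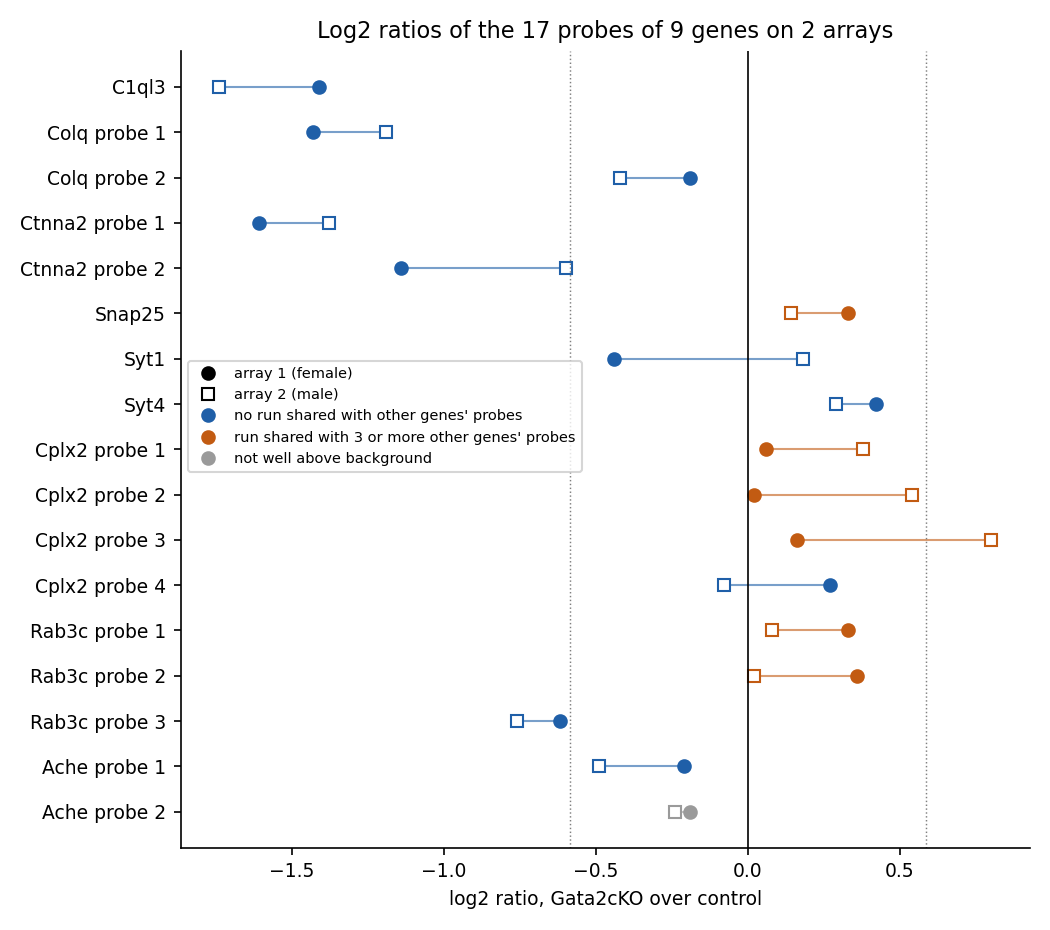
Log2 ratio (labelled Gata2cKO over control) of each of the 17 probes on array 1 (filled circles, female) and array 2 (open squares, male), with dotted lines at 1.5-fold. Orange marks probes with a run shared with probes of 3 or more other genes, blue those with none and grey the Ache probe not well above background. After loess all 6 orange probes lie right of 0 on both arrays, which held for 2 of them with median centring, while 7 of the 10 blue probes lie left of 0 on both under either scaling.

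Set side by side, the 6 run-sharing probes had mean log2 ratios of 0.19 to 0.48 (median 0.23), and all 6 were higher on both arrays after loess. With median centring 2 of the 6 were (Cplx2 probes 2 and 3), with processed signals 5 were, and 2 were in the authors' deposited table, while the rest had opposite signs. Under these 4 sources none of the 6 was lower on both arrays. The 10 probes that shared no run had means of -1.58 to 0.36 (median -0.52), with 7 lower on both arrays, 1 higher (Syt4) and 2 of opposite signs (Syt1 and Cplx2 probe 4). Probes of a gene share their source, and the 10 stand for 8 genes. The choice of genes fixed much of this division, so nothing is read from it. Of the 7 lower probes, 5 belong to C1ql3, Colq and Ctnna2, chosen as lower, and of the 6 run-sharing probes, 4 belong to Snap25 and Cplx2, chosen as not lower.

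The same division was made for all 25657 probes well above background. The 1387 probes that shared a run with 3 or more other genes made up 5.41%. Of these, 0.144% (2 probes) were at least 1.5-fold on both arrays with the same sign, against 0.729% (177 of 24270) of the rest. They were lower on both arrays in 10.5% and higher on both in 34.1% of cases, against 27.7% and 26.1%. Their median log2 brightness was 14.06, against 11.41. Brightness belongs to the probe as well as to the RNA, so it gives no order of RNA levels.

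Within single genes the division could be read in 325 genes with a detected probe that shared runs with 3 or more other genes and a detected probe that did not (called unshared below). Of these 325, 2 had an unshared probe at least 1.5-fold on both arrays, namely Rab3c and Slc18a2, the vesicular monoamine transporter. Among all unshared probes well above background, 0.729% (177 of 24270) were of that size, so nothing is read from the count. For Slc18a2 the unshared probe had ratios of -1.45 and -1.27 and the run-sharing probe -0.58 and -0.53. Both genes were picked by the size of the ratio on their unshared probe, so the smaller ratio on the other probe is a description only. The part of the shared runs in the ratios of Snap25, Cplx2 and Rab3c was not tested.

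Over all 9 groups of related genes, 135 of 168 were tested, and limma called 0 at an adjusted p of 0.05, while 30 had an unadjusted p under that value. Of all 20506 genes tested, limma called 18 (0.0878%), of which 9 were lower (0.0439%), and 1470 of the 20506 had an unadjusted p under 0.05. On both arrays 54 of the 135 (40.0%) were lower, against 26.2% of all genes tested, and 37 (27.4%) were higher, against 27.0%. Opposite signs were seen in 44, and the median log2 ratio of the 135 was -0.0458. By fitted ratio, 4 of 135 were past 1.5-fold on both arrays, against 0.712% of all genes tested. Of these, Cplx1, Unc13c and Slc18a3 were lower and Cntn1 was higher. Unc13c has only a bound of 1.33-fold, and without it 3 remained. Of the chosen probes, 7 shared runs with 3 or more other genes.

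The count of calls depended on the processing. It was 5 with the processed signals (Chrnb2, Cplx1, Slc18a3 and Unc13c lower, Cntn1 higher), when 165 genes were called in all, and 9 with a trended and robust eBayes, when 376 were. With the run-sharing probes left out, limma called 1, Slc18a3 (-0.90, adjusted p = 0.0431), among 83 of 19534 genes.

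The remaining groups are vesicle membrane and active zone genes. Of the 15 vesicle membrane and synapsin genes tested, 8 were lower and 3 higher on both arrays (median -0.119.) The synapsins Syn1 and Syn2, which tether vesicles, were at -0.35 ± 0.144 (adjusted p = 0.572) and -0.34 ± 0.0646 (adjusted p = 0.541). Of the 13 active zone genes, 6 were lower and 3 higher, with a median of -0.0778. The scaffold genes Lin7a and Ppfia2 were at -0.43 ± 0.0442 (adjusted p = 0.363) and -0.34 ± 0.0397 (adjusted p = 0.536).

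**Figure D3:**
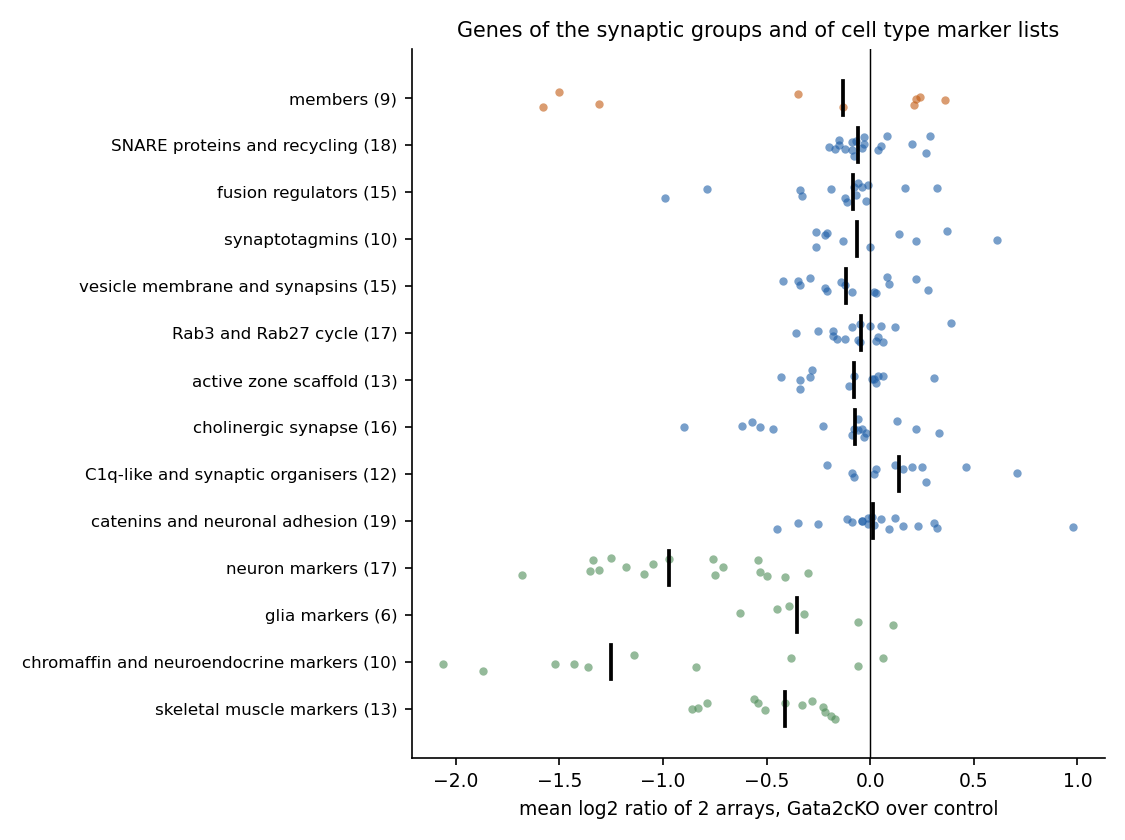
Mean log2 ratio over 2 arrays (labelled Gata2cKO over control) of each tested gene in the set of 9 (orange), in 9 groups of related synaptic genes (blue) and in 4 cell type marker lists (green), with the number tested in brackets. Black bars are medians, which lie between -0.119 and 0.14 for the 9 blue groups and between -1.25 and -0.355 for the green lists. Marker lists not drawn had medians of -0.694 (smooth muscle), -0.376 (macrophage), -0.208 (erythroid), -0.0508 (endothelial), 0.0376 (ureteric mesenchyme) and 0.194 (urothelium).

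Markers of nerve and endocrine cells moved with C1ql3, Colq and Ctnna2, and so did most smooth muscle markers, given further below. All 17 neuron markers were lower on both arrays, 9 of them at least 1.5-fold (median log2 ratio -0.969), and their summed signal was 34459 and 33402 in RNA labelled Gata2cKO against 69959 and 54035 in control RNA. Prph, the peripheral neuron intermediate filament, fell by 1.35 on the log2 scale (adjusted p = 0.038). Of 10 chromaffin and neuroendocrine markers, 8 were lower on both arrays (median -1.25). The summed signals of the 10 were 7297 and 7421 against 24285 and 17669. The exceptions, named after their values were seen, were Pnmt (0.05 and 0.08) and Pcsk2 (-0.14 and 0.03). Chgb, a granin of dense-core granules, fell by 2.06 (adjusted p = 0.038) and Slc18a2 fell by 1.36 (adjusted p = 0.0403). These calls were lost with median centring and in the authors' deposited table, where limma called 0 of all genes and 492 and 972 had an unadjusted p under 0.05.

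Glia and muscle markers are given beside them. Of 6 glia markers, 4 were lower on both arrays (median -0.355, summed signals 11856 and 12700 against 15380 and 14456), with Cdh19 not well above background. Sox10, a neural crest and glia regulator, was at -0.63 (adjusted p = 0.2) and Fabp7 at -0.39 (adjusted p = 0.427). Of 13 skeletal muscle markers, 12 were lower on both (median -0.412, sums 15839 and 12818 against 19817 and 18631) and limma called 0, with 8 at an unadjusted p under 0.05. Ckm and Pcsk1, of the muscle and endocrine lists, were not well above background. Of 9 smooth muscle markers, 7 were lower on both, 5 of them at least 1.5-fold (median -0.694, sums 85807 and 82090 against 104264 and 106282). The other 2 had opposite signs. Actg2 was at -1.13 ± 0.139 (limma adjusted p = 0.0532) and Myh11 at -1.13 ± 0.118 (limma adjusted p = 0.0509). The 7 macrophage markers tested were all lower on both arrays (median -0.376), as were 5 of 8 erythroid (median -0.208) and 4 of 9 endothelial markers (median -0.0508). The summed erythroid signal was 814091 in RNA labelled Gata2cKO against 495933 in control RNA on array 1, and 382881 against 818944 on array 2. Its direction thus reversed between the arrays, as did Hba-a1 (0.86 and -1.04) and Hbb-y (0.93 and -1.47). Of the urothelium markers 0 were lower and 7 higher on both (median 0.194), and of the ureteric mesenchyme markers 3 were lower and 5 higher (median 0.0376). The part of these cell types in the ratios of the 9 genes was not tested.

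The genes with the pair of array ratios nearest to those of C1ql3, Colq and Ctnna2 were found by Euclidean distance over the 2 arrays. They were Prph (0.427), Slc18a2 (0.478) and Epyc (0.505) for C1ql3. For Colq they were C2cd4b (0.0583), Slc18a2 (0.0832) and Pitx1 (0.0956), and for Ctnna2 they were Insm1 (0.166), Slc18a2 (0.202) and Prph (0.241). Insm1 is a transcription factor of neuroendocrine cells, Pitx1 a homeodomain factor of the hindlimb region and Epyc a small leucine-rich proteoglycan. Slc18a2 stood in all 3 lists. With 2 arrays this measure separates genes only by size and by the difference between the arrays.

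RefSeq promoter windows of assembly GRCm38.p6, which run 250 bases before to 50 bases after a start, matched 6 of the 9 genes in 7 windows. Colq, Snap25 and Syt4 were not matched. GATA factors bind a short motif, searched here on both strands as AGATAA, with T also allowed as its first base and G as its last (4 forms). It was found in 3 of the 7 windows and in 29.8% of all 32851 windows. The matches lie in genes that were not lower on both arrays, and some are shown for that reason as a stretch of 30 bases with the motif in capitals.
Syt1 (chr10:109009142-109009171, minus strand): ttcctcggagacTGATAAgcgattaccatc
Syt1 (chr10:109011196-109011225, minus strand): aTTATCTtttagtgttttctctttgggatc
Cplx2 (chr13:54302306-54302335, plus strand): ttaaatatcCTATCTtcagaaagatctccc
The windows of C1ql3, Ctnna2, Rab3c and Ache held no match to these letters.

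**Figure D4:**
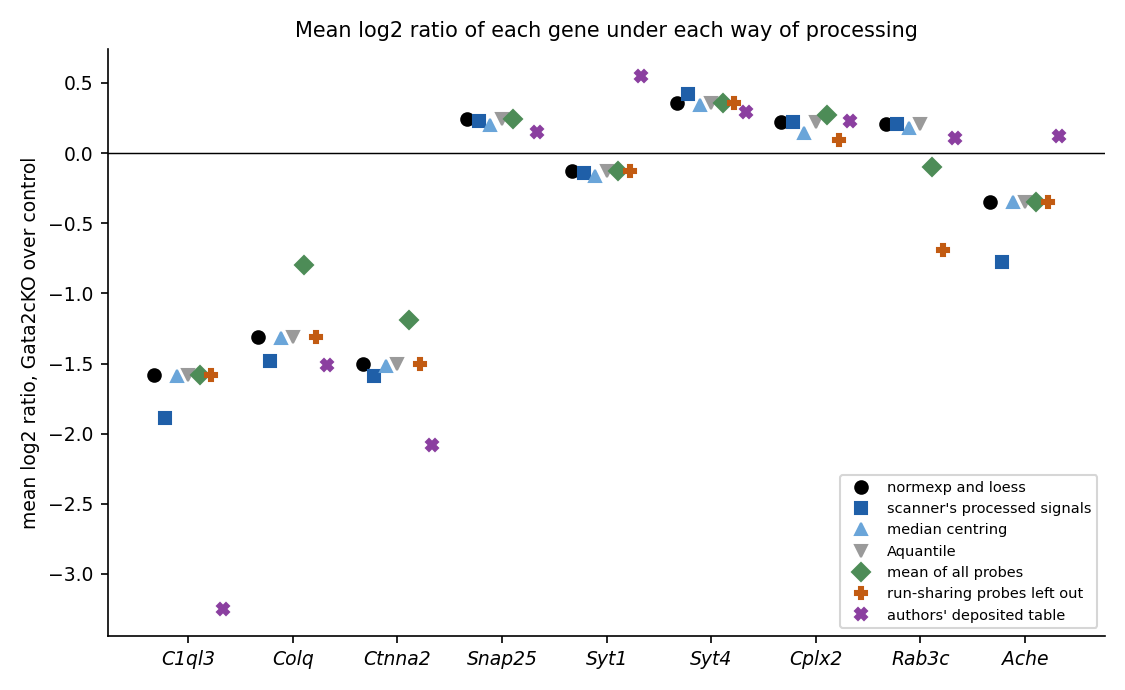
Mean log2 ratio over 2 arrays (labelled Gata2cKO over control) of each of the 9 genes under 7 ways of processing the arrays. C1ql3, Colq and Ctnna2 are below 0 under every one, from -0.80 to -3.25. Rab3c lies above 0 by its brightest probe and at -0.69 without run-sharing probes, and Syt1 and Ache lie above 0 in the authors' deposited table alone.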

How the data were processed

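Ratios were measured on 2 dye-swapped arrays with 1 RNA labelled Gata2cKO and 1 control RNA each. Per the file headers, the authors scanned Agilent arrays with probe coordinates on mm9, and per the submitters' processing notes used Agilent Feature Extraction 10.7.3.1. The deposited scanner files give mean spot and median background intensity, not normalized, and processed intensity that the software had background-subtracted and dye-normalized, per the file headers. The log10 ratio column in the deposited files, which the software made from processed intensity per the file headers, was not used. The authors' deposited table holds a score for each of 39429 probes, a signed fold change by its values (median 1.0 in both columns, 28.0% and 28.3% of probes at 1.0). How it was made and centred is unknown here. Its sign was set by its correlation with the scanner ratios (0.443 and 0.376), so it served as an alternative alone.

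Background was corrected by normexp (offset 50), ratios were normalized by loess (span 0.3, weight 0 for control spots and for the 255 and 178 outlier spots), array 2 was turned, and spots of a probe were averaged. Signals are per channel after loess and Aquantile, and are open to dye bias within an array. Probes well above background on both arrays in 1 group were kept (25657), and the brightest stood for a gene (20506 genes). RefSeq named 26412 probes by accession and 13017 kept the file's name. Ratios were tested against 0 with limma 3.58.1 (R 4.3.3), 2-sided, with 1 residual degree of freedom plus 4.68 of prior and Benjamini-Hochberg adjustment over all genes. A gene dim in 1 group has only a bound, with the dim side set, per array, to its own signal or the lowest detected one, whichever is higher. The code was tested on simulated data. Runs, motifs and tables used Python 3.11.15 and pandas 2.3.3.

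The members and lists were chosen with earlier results of these data known. Named genes are the 9, from each list those past the threshold (up to 4, for markers up to 2) or else the 2 of the same sign with the largest smaller ratio, and the nearest 3. The number of arrays limits the precision, and neither sex nor dye was fitted. The values of some list genes and some sequences are not reported here.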

Additional observations from a re-analysis of the deposited data

Results flagged for a closer look

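Both probes of the set with opposite signs on the female and the male array are given here. The Syt1 probe had a log2 ratio of -0.44 on the female and 0.18 on the male array, a difference (female minus male) of -0.62. Cplx2 probe 4 had 0.27 on the female and -0.08 on the male array, a difference of 0.35. With 1 array per sex these differences were not tested, and sex changed together with the dye that carried the RNA labelled Gata2cKO.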

How the results depend on the processing

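The number of the 9 genes at least 1.5-fold on both arrays was 3, with 4 under processed signals and with run-sharing probes left out (an alternative chosen after seeing the data), and 3 without either array. Among related genes, 0 were called, against 5 with processed signals, 9 with trended and robust eBayes and 1 with run-sharing probes left out, and 0 under the remaining alternatives, where 11 to 37 had an unadjusted limma p under 0.05. By fitted ratio, the number past 1.5-fold on both arrays was 4 (3 without Unc13c, which has only a bound), with 9 under processed signals and 8 to 11 when 1 array was left out, where passing on the remaining array alone sufficed. Leaving out 1 of 2 arrays cannot move a mean past their SD, and Aquantile leaves ratios as they are, so neither bears on stability of the 9 genes. Under the other alternatives 12 single-gene values moved by more than the SD, among them Colq at -0.80 and Ctnna2 at -1.19 as the mean of their probes, and Rab3c at -0.10 as the mean of its probes and -0.69 without run-sharing probes. Snap25 had no value without its run-sharing probe. No paired analysis was possible because each array is already a ratio of 1 RNA to the other, and all form 1 group.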
